A study of Homo sapiens with 12 samples.

Results

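The interferon response genes described here are 32 human genes that cells switch on, or keep ready, to answer interferon. They were taken by symbol from a list that was drawn up with earlier results of these data known, and all 32 were found among the 57169 genes of the count table. They were measured by polyadenylated RNA sequencing in 12 tumours grown as xenografts, that is, in a host animal, from the Ewing sarcoma cell line SK-ES1. The 6 control tumours carry the genotype label wild-type and the other 6 the label Knock-down for RING1B. RING1B, encoded by RNF2, is a Polycomb ubiquitin ligase that modifies histone H2A. The labels name no agent, dose, time point, host animal or silencing construct, and do not say whether a control construct was used or whether each library is its own animal. P-values therefore reflect only how far these samples spread, which may be technical. Library numbers below (control 1 to 6, knock-down 1 to 6) only name the samples.

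Type I and type III interferons are secreted proteins that bind receptors on the same or neighbouring cells and activate the kinases JAK1 and TYK2. These kinases phosphorylate STAT proteins, and a complex that contains STAT2 and IRF9 enters the nucleus and binds interferon-stimulated response elements, short GAAA repeats in promoters. The genes it switches on encode sensors of foreign RNA, proteins that block viral replication, and brakes on the response itself. In a xenograft, human cells and host cells share the tumour, and interferon made by one species can act poorly on cells of another.

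The promoter sequences are shown first because the element in them is the feature the family is known for. The core searched, GAAA followed after any 2 bases by another GAAA, was looked for on both strands, overlapping matches included, in windows from 250 bases before to 50 bases after each RefSeq transcript start on GRCh38.p14. It was present in 1255 of 35116 windows, or 3.57%. Of the 25 interferon response genes that matched a promoter entry, 17 had the core in at least 1 window and 8 did not, beside 4.38% of 27305 genes. DDX58 was matched under its RefSeq symbol RIGI. IFIT2, MX2, OAS2, OASL, IRF7, USP18 and NLRC5 were not matched. The gamma-activated core TTCNNNGAA, searched in the same way, was present in 7 of the 25 genes and 9.38% of all genes. A match is a description of letters and was not tested as a binding site. The 8 genes without the core were CMPK2, OAS1, STAT2, IRF1, IRF9, DDX58, XAF1 and PSMB9. The stretches below are a selection from the genes that have it, written 5′ to 3′ on the strand of the gene. Capitals mark matches to this core or to its reverse complement.
ISG15 (chr1:1013359-1013424, plus strand): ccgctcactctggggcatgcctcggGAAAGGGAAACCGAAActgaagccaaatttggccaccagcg
IFIT1 (chr10:89392482-89392554, plus strand): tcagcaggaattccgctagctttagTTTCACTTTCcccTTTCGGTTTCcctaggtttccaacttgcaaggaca
IFI6 (chr1:27672251-27672373, minus strand): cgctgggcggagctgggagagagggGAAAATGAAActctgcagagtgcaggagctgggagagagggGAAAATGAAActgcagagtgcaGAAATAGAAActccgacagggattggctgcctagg
IFI27 (chr14:94110603-94110675, plus strand): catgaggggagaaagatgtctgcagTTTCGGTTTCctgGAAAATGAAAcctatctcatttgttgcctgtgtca
RSAD2 (chr2:6877607-6877666, plus strand): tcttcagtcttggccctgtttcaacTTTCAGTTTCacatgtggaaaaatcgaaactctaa
HERC5 (chr4:88456969-88457079, plus strand): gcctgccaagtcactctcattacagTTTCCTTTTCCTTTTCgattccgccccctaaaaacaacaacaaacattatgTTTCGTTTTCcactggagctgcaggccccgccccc
IFIH1 (chr2:162318685-162318868, minus strand): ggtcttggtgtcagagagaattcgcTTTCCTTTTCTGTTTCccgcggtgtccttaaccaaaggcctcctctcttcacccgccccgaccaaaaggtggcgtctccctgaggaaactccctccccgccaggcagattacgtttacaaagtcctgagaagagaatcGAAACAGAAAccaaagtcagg
PARP9 and DTX3L (chr3:122564322-122564351, plus strand): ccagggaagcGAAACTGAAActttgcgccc

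The last stretch lies in promoter windows of a pair of genes. RefSeq places a start of PARP9 at base 122564300 on the minus strand and the start of DTX3L at base 122564338 on the plus strand, with 37 bases between them, and the match lies where the windows of both genes overlap. IFI6 and HERC5 each had 3 matches within their stretch, and IFIH1 had 3 within its longer stretch of 184 bases.

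Libraries held 23859184 to 26678325 counts, and 3 counts in a library corresponded to 0.112 to 0.126 CPM. CPM is the count relative to the library total, here with edgeR's TMM scaling between libraries, a trimmed mean over genes. These limits cover counting error only. RNF2 was lower in every knock-down library (12.4 to 23.4 CPM, median 18.4) than in any control (37.5 to 57.9 CPM, median 49.2), with a log2 fold change of -1.43 (SE 0.174, edgeR adjusted p = 0.00347). Knock-down 4 stood apart from the rest: its median Spearman correlation with the other libraries was 0.964, the lowest of the 12, followed by knock-down 5 (0.969) and control 6 (0.972). Of 10 Ewing sarcoma markers, 9 had counts, with sums of 1900 to 2170 CPM in controls and 2054 to 2352 CPM in knock-down libraries. CD99, a surface protein used as a marker of the disease, was at 0 in every library. The rule for reads that fit several places is not stated, so this 0 was not taken as absence of CD99. Genes used as markers of other cells differed between libraries. The sum of 20 leukocyte markers, none at 0 throughout, was 629 to 1097 CPM in controls and 735 to 1085 CPM in knock-down libraries, most of it ITGB2 and LCP1, with knock-down 4 at 747 and control 5 at 827 CPM, neither of them high. LCP1 was at 92.9 CPM in knock-down 4, the lowest of all 12 libraries (controls 153 to 300.2 CPM). Without these, a choice made after seeing the values, the other 18 summed to 8.67 to 37.4 CPM in controls and 10.1 to 47.4 CPM in knock-down libraries, highest in knock-down 4 and next in control 5. Among them CD68 had at most 5 counts in a library, C1QA at most 1 and C1QC at most 2. Fibroblast and pericyte markers (10 of 10 with counts) were highest in the same libraries, at 1634 CPM in knock-down 4 and 1608 CPM in control 5, in ranges of 568 to 1608 CPM for controls and 405 to 1634 CPM for knock-down libraries. The collagen genes COL1A1, COL1A2 and COL3A1 made up most of that sum, whereas LUM was at 6.34 CPM in knock-down 4, the lowest of all 12 libraries (controls 17.7 to 21.6 CPM). DCN, at 37.8 CPM, was the lowest of the knock-down group but within the control range of 30.5 to 39.1 CPM. Endothelial markers summed to 65.7 to 112 CPM in controls and 67.5 to 101 CPM in knock-down libraries, highest in control 5 and next in knock-down 4. Of these, EMCN was at its lowest of all 12 libraries in knock-down 4, at 5.37 CPM. Among 12 markers of plasmacytoid dendritic cells and lymphocytes, CLEC4C, GZMB, CD3D, CD3E and MS4A1 were at 0 in all libraries. The counts are of human gene models, and whether host reads were removed is not stated, so these sums need not measure host cells. The part of the marked cell types in the values below was not tested. In bulk tumours, fewer cells of a type and less RNA per cell cannot be told apart.

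None of the interferon response genes was called between knock-down and control, and in both groups the highest values came from a few tumours. The count filter kept 27 of the 32, and MX1, MX2, OAS2, XAF1 and PSMB9 were not tested. At a p below 0.05 from edgeR's quasi-likelihood test, adjusted by Benjamini-Hochberg over all genes, 0 of the 27 were called, against 0.297% of 16519 genes in both directions and 0.176% with higher levels. DESeq2 called 0 of them, beside 1.85% of the genes it tested, and limma-voom 0, beside 0.339%. Adjusted p-values ran from 0.231 for CMPK2 to 0.964 for IRF7. At an unadjusted edgeR p below 0.05 there were 6 genes, CMPK2, RSAD2, PARP9, IFIT2, OAS3 and DTX3L, all with positive fold changes, and 0 with negative ones. The share of all genes at that level was 12.7%, of which 7.45% were higher and 5.21% lower. Control and knock-down values overlapped in all 27 genes, which is near the share of all tested genes, of which 1.22% had groups without overlap.

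The direction of the fold changes leaned to higher values in the knock-down group. The log2 fold change was positive in 22 of the 27 genes, or 81.5%, beside 52.4% of all tested genes, with a median of 0.37 beside 0.013. Without knock-down 4 it was positive in 18 of 27, or 66.7% (51.0% of all genes), with a median of 0.17, and 2 genes had an unadjusted edgeR p below 0.05 beside 11% of all genes. Without control 5 there were 23 positive values, a median of 0.46 and 10 genes at that level, beside 13.2%. Without control 4 there were 2, beside 10.4%. The plot of fold changes with and without knock-down 4 shows the same by gene.

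**Figure D1:**
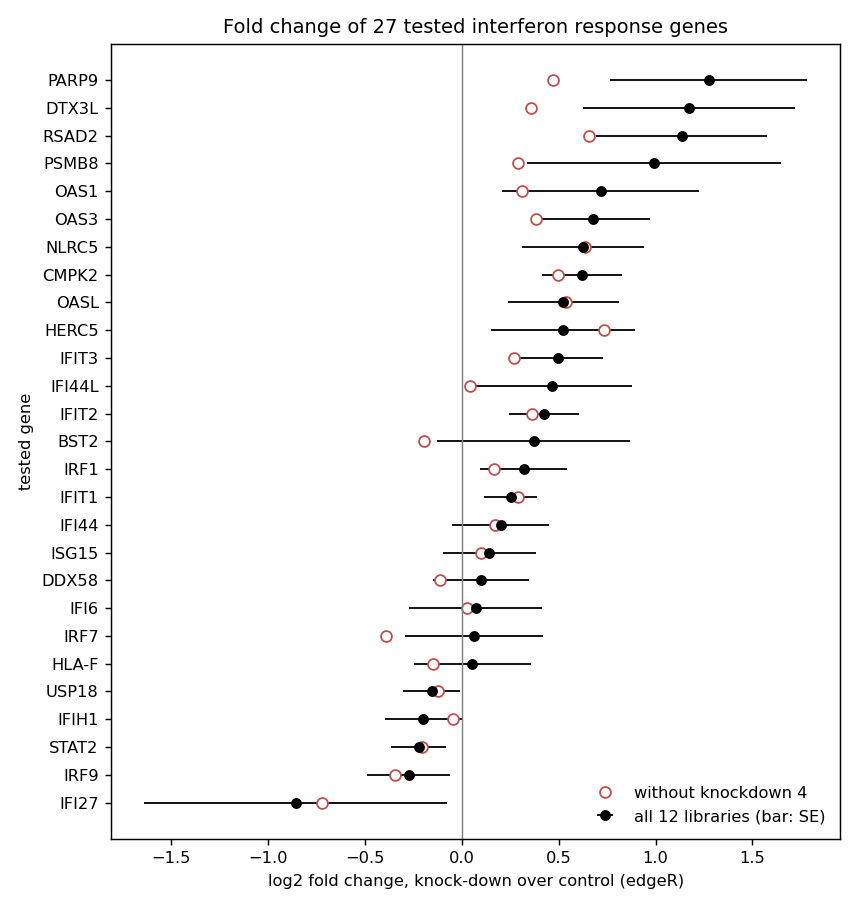
Log2 fold change of knock-down over control (x axis, edgeR) for the 27 tested genes (y axis), as black points with bars of 1 SE over all 12 libraries and as open red circles without knock-down 4. The largest values, 1.27 for PARP9 and 1.17 for DTX3L, move to 0.47 and 0.36 without that library, whereas NLRC5 and OASL barely move.

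Effectors are the proteins that act on viral RNA or particles, and 8 of the 10 were tested. All 8 had positive log2 fold changes, from 0.14 to 1.13 with a median of 0.46, and none was called. The IFIT proteins bind foreign RNA and block its translation, and their genes lie side by side on chromosome 10. IFIT1 (chr10:89392546-89406486, plus strand, hg38) ranged from 15.6 to 22.9 CPM with a median of 17.0 in controls and from 16.5 to 26.4 CPM with a median of 21.0 in knock-down libraries. The groups overlapped widely, with control 3 among the high libraries and knock-down 6 among the low ones. A log2 fold change of 0.25 was found (SE 0.138, edgeR adjusted p = 0.469). IFIT2 (chr10:89283694-89309276, plus strand) had control values of 8.19 to 16.9 CPM, median 10.1, and knock-down values of 11.4 to 18.5 CPM, median 15.6. Control 3 reached into the knock-down range, and the lowest knock-down library lay above 4 of the controls. EdgeR gave a log2 fold change of 0.42 (SE 0.181, adjusted p = 0.348). IFIT3 (chr10:89327894-89340971, plus strand) was at 6.66 to 13.6 CPM (median 9.03) in controls and 9.22 to 23.2 CPM (median 11.2) in knock-down libraries. Knock-down 4 was the highest and lay 2.40-fold above the median of the other 11 libraries. Without it, the log2 fold change of 0.49 (SE 0.235, adjusted p = 0.400) was 0.27.

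ISG15 (chr1:1001138-1014540, plus strand) encodes a ubiquitin-like protein that is joined to newly made proteins. Controls ranged from 39.8 to 109 CPM with a median of 60.0, and knock-down libraries from 49.7 to 116 CPM with a median of 61.6. The high values were 1 tumour in each group, control 5 and knock-down 1, and the medians were close. This made a log2 fold change of 0.14 (SE 0.241, adjusted p = 0.852), -0.067 without knock-down 1 and 0.35 without control 5. HERC5, the ligase that attaches ISG15, did not follow it. In HERC5 (chr4:88457117-88506163, plus strand) knock-down 3 was the highest library at 14.3 CPM and knock-down 4 the lowest of all 12 at 1.41 CPM, with controls at 2.93 to 6.82 CPM. The fold change on the log2 scale was 0.52 (SE 0.372, adjusted p = 0.587), or 0.73 without knock-down 4, in a range of 0.17 to 0.73 when each library was left out.

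CMPK2, a mitochondrial nucleotide kinase, and RSAD2, which makes a chain-terminating nucleotide from CTP, are neighbours that are read in opposite directions on chromosome 2. CMPK2 (chr2:6840570-6866635, minus strand) had the smallest p of the 27. Its controls lay between 3.37 and 6.21 CPM (median 5.01) and its knock-down libraries between 5.35 and 10.6 CPM (median 7.04). Only knock-down 5 fell inside the control range, and knock-down 4 was the highest. In edgeR the log2 fold change came to 0.62 (SE 0.206, edgeR adjusted p = 0.231), and 0.49 without knock-down 4. An exact permutation test (two-sided, all 924 divisions into 6 and 6) gave CMPK2 a p of 0.013, the smallest of the 27, and 3 of the 27 were below 0.05, a share near the 11.8% of all tested genes. RSAD2 (chr2:6865806-6898239, plus strand) was at 0.556 to 1.79 CPM (median 0.859) in controls and 0.719 to 5.45 CPM (median 1.92) in knock-down libraries. Knock-down 4 was the highest library and held 40.5% of the knock-down sum. Without it, the log2 fold change of 1.13 (SE 0.442, adjusted p = 0.307) was 0.65. BST2, which tethers budding virus particles, was at 39.4 CPM in knock-down 4 and 26.0 CPM in control 5, and at 3.55 to 14.2 CPM elsewhere. On the log2 scale the change was 0.37 (SE 0.498, adjusted p = 0.798) and turned to -0.19 without knock-down 4.

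**Figure D2:**
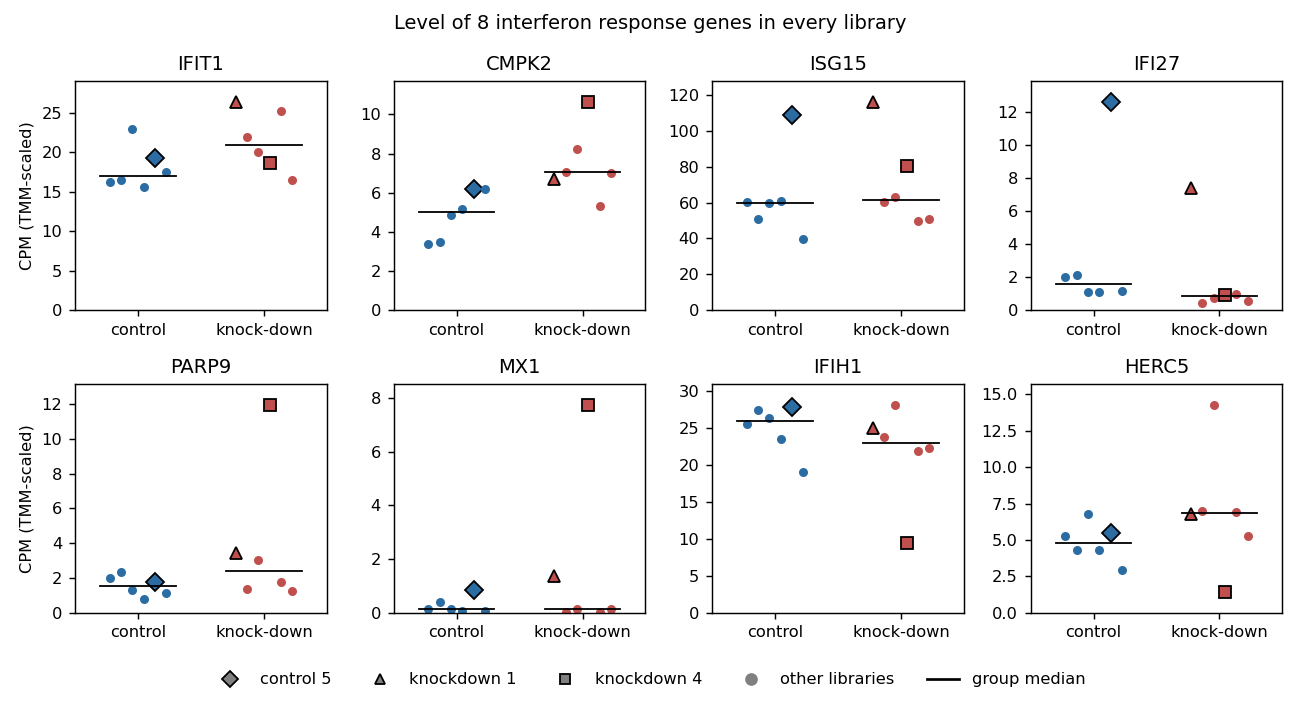
TMM-scaled CPM (y axis, linear, from 0) of 8 genes in each of the 6 control and 6 knock-down libraries, with a line at each group median and separate symbols for control 5, knock-down 1 and knock-down 4. ISG15 and IFI27 are high in control 5 and knock-down 1, PARP9 and MX1 in knock-down 4, and IFIH1 and HERC5 are lowest in knock-down 4.

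MX1 and MX2, GTPases that trap incoming viruses, did not pass the count filter. MX1 (chr21:41420304-41459214, plus strand) had 2 to 21 counts in controls, 182 counts in knock-down 4, 35 in knock-down 1 and 1 to 4 in the other knock-down libraries. Knock-down 4 thus stood at 7.75 CPM and held 81.4% of the knock-down sum of MX1 and 68.9% of the sum over all 12 libraries. MX2 had 0 to 15 counts in controls, 39 in knock-down 4, 20 in knock-down 1 and 1 to 6 elsewhere.

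Sensors recognise viral RNA, and 5 of the 6 were tested. Their log2 fold changes ran from -0.20 to 0.72 with a median of 0.52, 4 of them positive. OAS enzymes, once bound to double-stranded RNA, make the signal that activates RNase L. OAS3 (chr12:112938352-112973249, plus strand) had control values of 5.98 to 15.3 CPM (median 11.9) and knock-down values of 9.52 to 34.8 CPM (median 16.7). Knock-down 4 was the highest and held 32.2% of its group, and knock-down 5 and 6 lay within the controls. Knock-down over control was 0.68 on the log2 scale (SE 0.292, adjusted p = 0.353), or 0.38 without knock-down 4. OASL (chr12:121019111-121039242, minus strand), a relative that lacks this enzyme activity and aids RNA sensing, was at 1.72 to 7.64 CPM (median 4.70) in controls and 4.81 to 10.3 CPM (median 6.18) in knock-down libraries. Control 6 was the lowest and knock-down 1 the highest. EdgeR gave a log2 fold change of 0.52 (SE 0.285, adjusted p = 0.467) and 0.54 without knock-down 4, in a range of 0.35 to 0.69 when each library was left out.

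OAS1 was at 7.03 CPM in knock-down 4, 5.14 CPM in knock-down 1 and 4.26 CPM in control 5, and its log2 fold change was 0.72 (adjusted p = 0.584), or 0.31 without knock-down 4. OAS2, not tested, had 71 counts in knock-down 4, 47 in knock-down 1, 1 to 9 in the other knock-down libraries and 5 to 18 in controls. The other sensors are helicases that detect RNA ends or long duplexes. DDX58, which encodes RIG-I, was highest in knock-down 4 at 15.4 CPM, and its log2 fold change of 0.10 (adjusted p = 0.903) was -0.11 without it. IFIH1, which encodes MDA5 (chr2:162267079-162318703, minus strand), was the reverse case. Knock-down 4 was the lowest library at 9.41 CPM, while the other 11 lay between 19.1 and 28.2 CPM. The log2 fold change of IFIH1 was -0.20 (SE 0.200, adjusted p = 0.715), or -0.044 without knock-down 4.

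The regulators carry or limit the signal, and all 6 were tested, 3 with positive log2 fold changes, over a range of -0.27 to 0.62 and a median of -0.046. STAT2 (chr12:56341597-56360155, minus strand) had 39.3 to 66.9 CPM (median 54.9) in controls and 38.3 to 57.8 CPM (median 47.6) in knock-down libraries. The ranges almost coincided. This made a log2 fold change of -0.22 (SE 0.142, adjusted p = 0.537). Its partner IRF9 (chr14:24161053-24166565, plus strand) was at 1.82 to 3.47 CPM (median 2.33) and 1.44 to 2.55 CPM (median 2.15), again overlapping. The log2 fold change of IRF9 was -0.27 (SE 0.215, adjusted p = 0.626), and 48.4% of its exon bases are shared with AL136295.5 on the same strand, which leaves its counts uncertain.

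IRF1 and IRF7 are transcription factors that are themselves induced. IRF1 (chr5:132481609-132490798, minus strand) ranged over 2.43 to 5.25 CPM (median 3.84) in controls and 3.47 to 7.37 CPM (median 4.56) in knock-down libraries, highest in knock-down 4. A log2 fold change of 0.32 was found (SE 0.226, adjusted p = 0.584), or 0.17 without that library, and C5orf56 covers 22.0% of its exon bases on the opposite strand. IRF7 (chr11:612553-615999, minus strand), the amplifier of type I interferon production, was at 3.94 to 9.94 CPM (median 7.23) in controls and 4.34 to 17.9 CPM (median 4.88) in knock-down libraries. The knock-down median was below the control median although the highest library was knock-down 4. The log2 fold change of 0.061 (SE 0.356, adjusted p = 0.964) was -0.39 without it.

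NLRC5, which drives MHC class I genes, differed in another way: its spread was in the controls. NLRC5 (chr16:56989485-57083531, plus strand) was at 0.419 to 2.43 CPM (median 1.86) in controls and 1.90 to 3.10 CPM (median 2.49) in knock-down libraries. Control 6 was by far the lowest, and no knock-down library stood out. In edgeR the log2 fold change came to 0.62 (SE 0.315, edgeR adjusted p = 0.431; two-sided exact permutation p = 0.0173), with 0.64 in the absence of knock-down 4. Over the runs that each left out 1 library, it was 0.43 to 0.74. USP18, which removes ISG15 from proteins and dampens the receptor, was at 9.73 to 15.9 CPM over all 12 libraries with a log2 fold change of -0.15 (adjusted p = 0.698).

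Among the other induced genes, 6 of 7 were tested, and 5 had positive log2 fold changes, with a range of -0.86 to 1.27 and a median of 0.33. PARP9 and DTX3L encode the partners of a complex that ubiquitinates histones and other proteins. They are the pair whose promoter windows share the stretch printed above. PARP9 (chr3:122527924-122564577, minus strand) was at 0.813 to 2.35 CPM (median 1.55) in controls and 1.26 to 12 CPM (median 2.41) in knock-down libraries. DTX3L (chr3:122564238-122575203, plus strand) was at 0.712 to 3.19 CPM (median 2.33) and 1.69 to 14.7 CPM (median 2.83). In both, knock-down 4 was far above the next library, at 3.44 CPM for PARP9 and 4.08 CPM for DTX3L. Their log2 fold changes were 1.27 (SE 0.509, adjusted p = 0.319) and 1.17 (SE 0.546, adjusted p = 0.391), or 0.47 and 0.36 without that library. Their exons share 217 bases on opposite strands, and since the strand setting of the counting is not given in the sources used here, reads there cannot be told apart.

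IFI27, IFI6 and IFI44 showed a different set of high tumours. IFI27 (chr14:94104836-94116698, plus strand), a small mitochondrial protein gene often used as a mark of the response, had its highest value, 12.6 CPM, in control 5 and the next, 7.4 CPM, in knock-down 1, and was at 0.423 to 2.12 CPM in the other 10 libraries. Control 5 held 317 counts of IFI27 and control 4, whose title carries the same number, 28. Knock-down over control was -0.86 on the log2 scale (SE 0.781, adjusted p = 0.682), 0.28 without control 5 and -2.17 without knock-down 1. IFI6 (chr1:27666061-27672218, minus strand), related to IFI27, had 69.6 CPM in knock-down 1 and 59.1 CPM in control 5, beside 16.4 to 37.0 CPM elsewhere. The fold change on the log2 scale was 0.071 (adjusted p = 0.955), or -0.31 without knock-down 1. IFI44 was highest in control 6 at 51.5 CPM, with a log2 fold change of 0.20 (adjusted p = 0.780), whereas its neighbour IFI44L was highest in knock-down 4 at 12.2 CPM, with 0.47 (adjusted p = 0.669), or 0.044 without that library. XAF1, a regulator of cell death, had at most 4 counts in any library.

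The antigen presentation genes encode parts of the immunoproteasome and a non-classical MHC protein. PSMB8 (chr6:32840717-32844703, minus strand) was at 0.194 to 1.83 CPM (median 0.301) in controls and 0.236 to 3.24 CPM (median 0.687) in knock-down libraries. Control 5 and knock-down 4 were the highest of their groups, with 55.7% and 49.4% of the sums. The log2 fold change of 0.99 (SE 0.657, adjusted p = 0.551) was 0.29 without knock-down 4 and 1.88 without control 5. PSMB9, next to it, had at most 13 counts and was not tested, and HLA-F had a log2 fold change of 0.054 (adjusted p = 0.962). HLA-F resembles other HLA genes, as USP18 does its copy USP41, so their counts are uncertain where reads fit several genes.

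**Figure D3:**
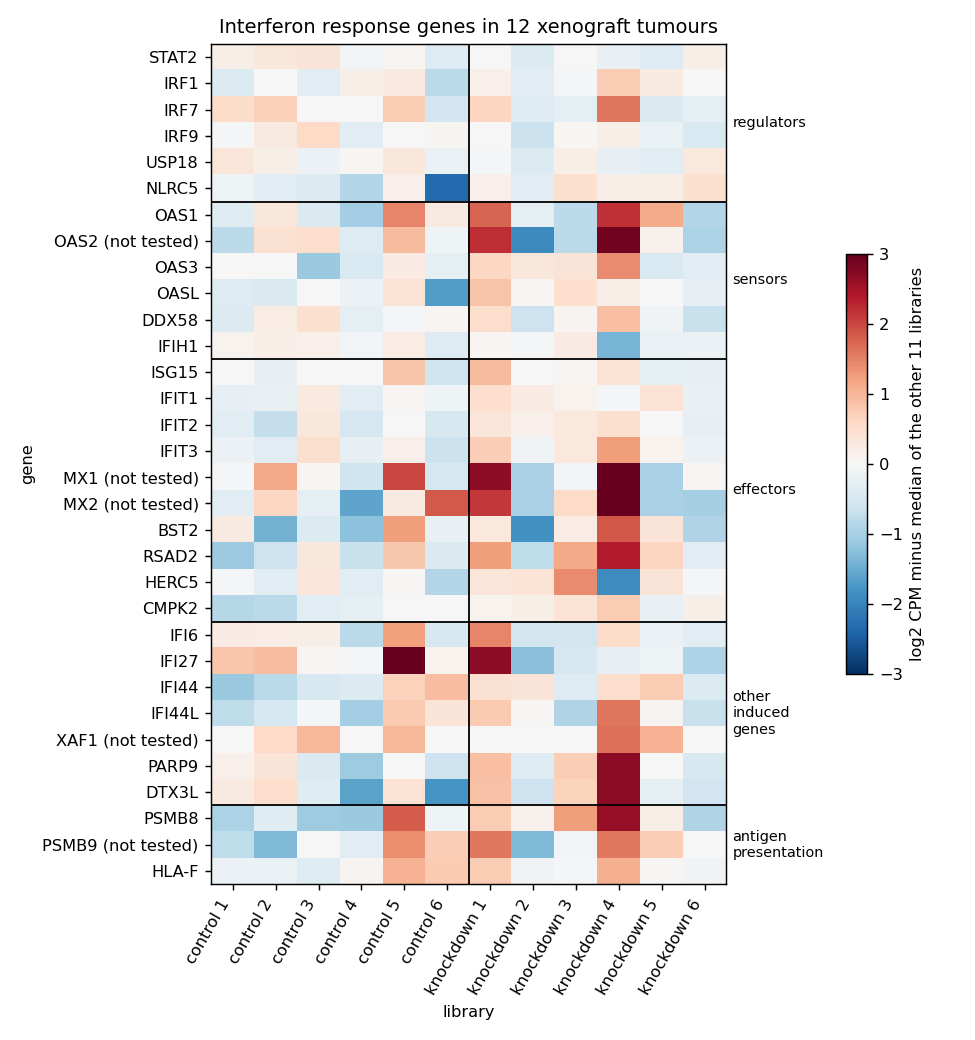
Log2 CPM minus the median of the other 11 libraries (colour, limited to 3 in either direction) for all 32 genes (rows, by role) in the 12 libraries (columns, controls left of the line). Knock-down 4 is red in most rows but blue for IFIH1 and HERC5, and control 5 and knock-down 1 are red for ISG15, IFI6, IFI27 and OAS1.

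The share of a gene that a single tumour carried was measured as the highest library's percentage of the summed CPM of its group, where an even share is 16.7%. In the knock-down group the median over the 27 tested genes was 28.1% (20.0% to 66.8%), beside 21.5% for all tested genes. In the control group it was 24.7% (18.6% to 62.7%), beside 21.0%. A share above 30% was found for 12 of the 27 genes among knock-down libraries, beside 10.9% of all genes, and for 5 among controls, beside 8.18%. Over all 12 libraries, where an even share is 8.33%, the median was 14.8% beside 11.5%, and 4 genes exceeded 30% beside 1.26% of all genes. These were IFI27 (40.4%), PARP9 (37.1%), DTX3L (36.6%) and PSMB8 (32.9%). The lowest shares over all libraries were 10.1% for IFIH1, 10.3% for USP18, 10.97% for STAT2 and 11.1% for IFIT1. This measure follows the highest library alone, and IFIH1, the lowest by it, had a single low library in knock-down 4.

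**Figure D4:**
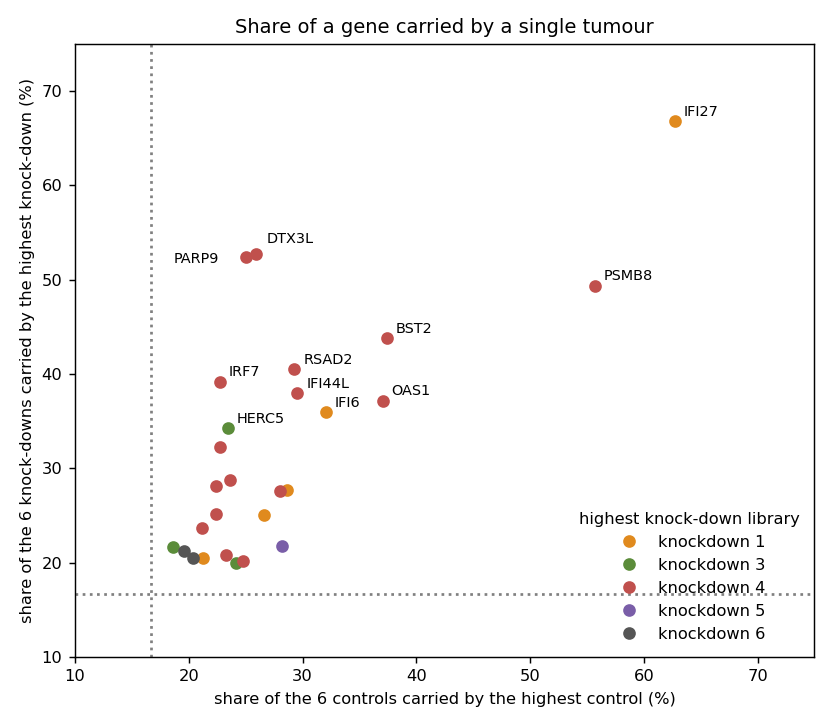
For each of the 27 tested genes, the share of the control sum held by the highest control (x axis, %) against the share of the knock-down sum held by the highest knock-down library (y axis, %), coloured by that library, with dotted lines at the even share of 16.7%. IFI27 lies at 62.7% and 66.8%, and PARP9 and DTX3L above 52% of the knock-down sum but near 25% of the control sum.

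The tumours that carried these shares were few. Within the knock-down group, knock-down 4 was the highest library for 16 of the 27 genes, knock-down 1 for 5, knock-down 3 for 3, knock-down 6 for 2 and knock-down 5 for 1. Within the controls, control 5 was the highest for 16 and control 3 for 7. Over all 12 libraries, knock-down 4 was the highest for 15 genes, or 55.6%, whereas 16.7% of all tested genes were highest there. The summed CPM of the 32 genes was 498 in knock-down 1, 493 in knock-down 4 and 479 in control 5, and 282 to 351 in the other 9 libraries, so the high tumours were 1 control and 2 knock-downs.

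The genes that departed were not the same in each tumour. In knock-down 4, 11 of the 27 genes were at least 2-fold above the median of the other 11 libraries, beside 8.76% of all genes: IFIT3, IFI44L, OAS1, OAS3, IRF7, BST2, RSAD2, PARP9, DTX3L, PSMB8 and HLA-F. IFIH1 and HERC5 were at least 2-fold below it there, beside 4.55% of all genes. In control 5, 6 genes were above (IFI6, IFI27, OAS1, BST2, PSMB8 and HLA-F, beside 3.45%) and 0 below (beside 0.848%). In knock-down 1, 4 were above (IFI6, IFI27, OAS1 and RSAD2, beside 1.57%) and 0 below (beside 1.16%). OAS1 is the gene common to the 3 lists of genes above, while IFI27 in knock-down 4 was at 0.937 CPM, among the low libraries. Control 4 had 0 genes above and 6 below (IFI44L, OAS1, BST2, PARP9, DTX3L and PSMB8, beside 1.2% of all genes). Control 6 had 3 below (OASL, DTX3L and NLRC5, beside 3.71%), and knock-down 3 had 3 above (RSAD2, HERC5 and PSMB8, beside 1.18%). The other 6 libraries had 0 or 1 gene above and 0 to 2 below. Knock-down 3 and control 4, whose titles carry the same numbers as knock-down 4 and control 5, had summed levels of 351 and 282 CPM. The part of the marker cells in these departures was not tested. Of 12 tested leukocyte markers, 7 had their highest value of all 12 libraries in knock-down 4, and 1, LCP1, its lowest. Of 9 tested fibroblast and pericyte markers, 3 (COL1A2, ACTA2 and POSTN) were highest there, and 1, LUM, was lowest. Of all tested genes, 16.7% were highest and 15.7% lowest in that library.

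**Figure D5:**
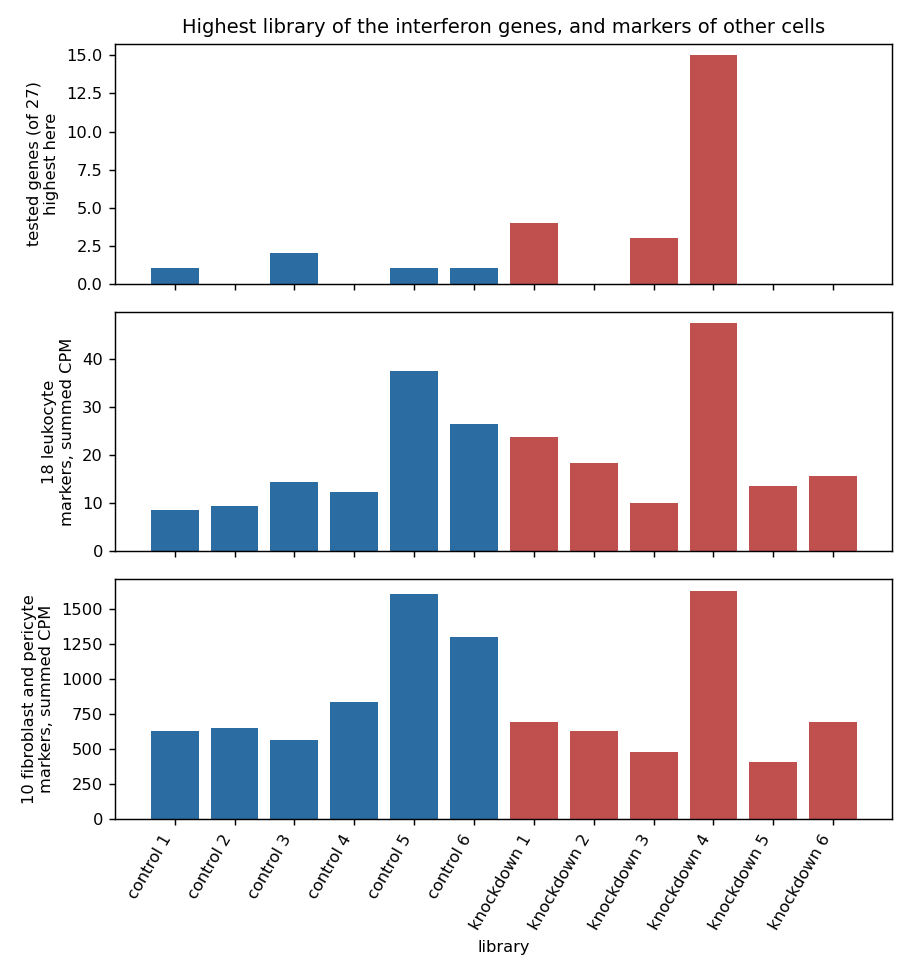
Bars from 0 for the 12 libraries (x axis) show how many of the 27 tested genes were highest in that library (top), the summed CPM of 18 leukocyte markers without ITGB2 and LCP1 (middle) and the summed CPM of 10 fibroblast and pericyte markers (bottom). Knock-down 4, with 15 of the 27 genes, also has the highest of these sums, 47.4 and 1634 CPM, and control 5 the next, whereas knock-down 1 has 23.8 and 692 CPM, and with ITGB2 and LCP1 the leukocyte sum of knock-down 4 is 747 CPM, among the low libraries.

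Levels between genes were compared as mean CPM over the 12 libraries per kilobase of merged exons. ISG15 was the most abundant at 70.9 CPM per kilobase, followed by IFI6 (36.4), IFI44 (16.1), BST2 (11.9) and STAT2 (8.32). USP18 was at 6.05, IFIH1 at 4.57, IFIT3 at 4.36 and IFIT1 at 4.27 CPM per kilobase, and the untested MX1 at 0.109, MX2 at 0.0258 and XAF1 at 0.00568. Before scaling to length, 26 of the 32 genes averaged at least 1 CPM.

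Upstream of these genes, the ligands had almost no counts. Of 12 interferon genes, 9 were at 0 in every library, and IFNB1, IFNW1 and IFNL1 had at most 5 counts in a library. IFNB1 had 3 counts in all and at most 1 in a library, in both groups, and 1 of the 3 was in knock-down 4. For a gene whose reads can be assigned to it, a count of 0 in a library allows a level of up to 0.126 CPM. The rule for reads that fit several genes is not stated, and only human gene models were counted. The receptor subunits were present, and all 6 had positive log2 fold changes with a median of 0.30 and 0 called. IFNGR2 was at 59.5 ± 5.97 CPM in controls and 73.7 ± 12.8 CPM in knock-down libraries (SD, n = 6 each; log2 fold change 0.31, edgeR adjusted p = 0.302) and IFNGR1 at 29.2 ± 4.14 and 39.2 ± 14.6 CPM (0.42, adjusted p = 0.392). Of the 5 receptor kinases and STAT genes outside the 32, 1 had a positive value, with a range of -0.19 to 0.022 and 0 called. TYK2 had a log2 fold change of -0.16 (adjusted p = 0.672).

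Further regulators and sensing genes had median log2 fold changes near 0. Among 12 regulators, 10 were tested, 6 with positive values and a median of 0.052, and 0 were called. IRF2, a repressor that competes at the same element, had the smallest p, from 6.95 ± 0.400 CPM in controls to 9.17 ± 1.57 CPM in knock-down libraries (SD, n = 6 each; log2 fold change 0.40, edgeR adjusted p = 0.253), and PTPN11, a phosphatase, had -0.12 (adjusted p = 0.584). Of 14 genes of nucleic acid sensing, 10 were tested, 6 with positive values, with a median of 0.013 and 0 called. MAVS, the adaptor of RIG-I and MDA5, had a log2 fold change of -0.24 (adjusted p = 0.537), and CGAS, the DNA sensor, 0.21 (adjusted p = 0.619).

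A further list of 50 interferon-induced genes outside the 32 had 38 tested, 24 of them with positive log2 fold changes, a median of 0.14 and 0 called. At an unadjusted edgeR p below 0.05, 8 of the 38 were higher and 2 lower, beside 7.45% and 5.21% of all tested genes. PARP12, an ADP-ribosyltransferase with antiviral activity, was closest to the threshold, at 6.16 to 9.79 CPM (median 7.68) in controls and 10.9 to 14.2 CPM (median 13.0) in knock-down libraries. The groups of PARP12 did not overlap, and knock-down 4 was one of several high libraries. On the log2 scale the change was 0.70 (SE 0.140, edgeR adjusted p = 0.0511), with an adjusted p of 0.000517 by DESeq2 and 0.0446 by limma-voom. The edgeR adjusted p of PARP12 was 0.167 with counts summed by title number, 0.0934 with the title letter as covariate, and 0.0548 to 0.138 when each library was left out. With the title number as a random effect in limma-voom it was 0.0306. Other edgeR runs gave PARP12 0.0467 on genes with at least 1 CPM in 6 libraries, 0.0805 without the count filter and 0.0710 with library size alone. LAP3, an aminopeptidase, lay the other way, from 112 to 129 CPM (median 114) in controls to 67.2 to 104 CPM (median 84.9) in knock-down libraries, also without overlap. A log2 fold change of -0.45 was found (SE 0.115, edgeR adjusted p = 0.126). For LAP3 the adjusted p was 0.0235 by DESeq2, 0.108 by limma-voom, 0.242 with counts summed by title number and 0.0781 to 0.244 when each library was left out in edgeR.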

How the data were processed

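The 32 genes, the other gene lists and the markers were chosen with earlier results of these data known. The deposited table holds raw read counts per gene. Per the submitters' processing notes the authors used FastQC, STAR 2.6.0a, hg38, featureCounts, limma 3.40.2 and R 3.6.0, and the TruSeq stranded mRNA kit per the labels' protocols. Not stated there are the strand setting, the rule for multi-mapping reads and whether host reads were removed. Coordinates are those of the deposited table.

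Counts were analysed in R 4.3.3 with edgeR 4.0.16 over all genes. The steps were filterByExpr, TMM scaling (factors 0.921 to 1.04), robust quasi-likelihood F tests of 6 knock-down against 6 control libraries without covariates, and Benjamini-Hochberg adjustment over 16519 genes, with calls at 0.05. The script was tested on simulated data. CPM values are TMM-scaled, and log2 CPM used a prior count of 2. DESeq2 1.42.0 and limma 3.58.1 served as alternatives. Single genes were checked by exact permutation. Full values are given for the 12 tested genes with the smallest edgeR p and for STAT2, IRF9, IRF1, IRF7 and ISG15. From each other list the genes with the smallest p are named. The other genes and libraries singled out were chosen after their values were seen. Promoter windows are RefSeq's on GRCh38.p14.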

Additional observations from a re-analysis of the deposited data

Results flagged for a closer look

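Within each group of 6 libraries, the gap between the highest or lowest value and its neighbour was set against the group's whole range. In 16 of 62 groups this ratio was above Dixon's 95% critical value for 6 samples, which chance passes in about 5% of groups of independent normal values. Among the 27 tested genes, 5 passed it in the controls and 9 in the knock-down group, beside 12.1% and 8.83% of all tested genes. Genes that move together in a library are not separate cases. Of the 16, 8 lay in knock-down 4, 5 in control 5, 2 in knock-down 1 and 1 in control 6.

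In knock-down 4, the single high values were MX1 at 7.75 CPM, IRF7 at 17.9 CPM, BST2 at 39.4 CPM, RSAD2 at 5.45 CPM, PARP9 at 12 CPM, DTX3L at 14.7 CPM and PSMB8 at 3.24 CPM. The next knock-down library had 1.38, 9.18, 14.2, 2.45, 3.44, 4.08 and 1.20 CPM in the same order. IFIH1 was the single low value there, at 9.41 CPM with the next at 21.8 CPM.

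In control 5, ISG15 at 109 CPM, IFI6 at 59.1 CPM, IFI27 at 12.6 CPM, OAS1 at 4.26 CPM and PSMB8 at 1.83 CPM stood off from the other controls. In knock-down 1 the values were IFI6 at 69.6 CPM and IFI27 at 7.4 CPM, and in control 6 the value was MX2 at 0.628 CPM, which rests on 15 counts.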

How the results depend on the processing

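No interferon response gene was called under any alternative run, with a lowest adjusted p of 0.0986, and 570 of 593 fold changes of single genes kept their sign. The number of all genes called, 49, was 348 with DESeq2, 91 with limma-voom and the title number as a random effect, 7 with counts summed by title number, 28 with the title letter as covariate, 3 at an adjusted p below 0.01, 16 to 79 when each library was left out, and 108 without control 6, knock-down 4 and knock-down 5, a choice made after seeing the data. IRF7 turned to -0.10 with limma-voom, -0.12 with the random effect and -0.44 without those 3 libraries, IFI6 to -0.0013 with the random effect, and IRF1 to -0.0088, DDX58 to -0.12 and BST2 to -0.36 without the 3 libraries. Leaving out each library gave -0.39 to 0.18 for IRF7, -0.31 to 0.35 for IFI6, -0.15 to 0.25 for HLA-F, -2.17 to 0.28 for IFI27, -0.067 to 0.35 for ISG15, -0.11 to 0.21 for DDX58 and -0.19 to 0.77 for BST2. The cause was not tested. The median over the tested genes stayed between 0.17 and 0.50, and RNF2 between -1.53 and -1.35. No paired analysis was possible because no title number occurs in both groups and replicate numbers only name samples. Genes with few counts, such as MX1, OAS2 and PSMB8, are limited by depth.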

Other observations

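Of the 38 tested genes in the list of other interferon-induced genes, 11 were at least 2-fold above the median of the other libraries in knock-down 4 and 1, TRIM14, at least 2-fold below it, beside 8.76% and 4.55% of all tested genes. SAMHD1 was also at its lowest of all 12 libraries there, at 27.3 CPM. The genes named next were picked after their values were seen. PARP14 had 447 counts there and at most 153 in any other library, and CXCL10, a chemokine that attracts T cells, 165 and at most 84. TRIM22 had 42 counts and at most 4 elsewhere, EPSTI1 43 and at most 3, and SAMD9L 40 and at most 7. PARP14 was not called between the groups (edgeR adjusted p = 0.434). The other genes of these 5 did not pass the count filter, among them CXCL10 with 331 counts over all libraries, and were not tested.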
